A study of Homo sapiens with 12 samples.

Results

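Antioxidant genes and genes that the transcription factor NRF2 is known to switch on were followed in DU145 cells, a human prostate carcinoma cell line. The group was a list of 37 gene symbols, chosen by function and not by a measured value, though with earlier results of these data known. Of the symbols, 36 were found among the 28747 genes of the count table. The identifier paired with the symbol SOD2 in the annotation used here was not among the counted genes. An older identifier of SOD2 was among them but was not matched to the symbol. SOD2 was therefore not analysed here, which does not mean that its RNA was not measured. RNA sequencing was done on 12 libraries in 4 groups of 3. All cells came from DU145 lines made with lentiviral hairpin RNA and selected with puromycin, carrying either a control hairpin (shCtrl) or the hairpin labelled shSigma. Each line was grown attached to plastic (adherent) or as tumor spheres (TS), which formed at low cell density on non-adhesive plates in serum-free medium with B-27, insulin, FGF2 and EGF. Attachment, medium and cell density therefore changed together, and they cannot be told apart in any comparison of spheres with adherent cells. The methods describe the 3 replicates of a condition as biologically independent, all drawn from the same stable lines. The methods name 1 hairpin clone for the stable knockdown lines in general, and the paper's figures show a further hairpin in DU145 cells. The labels do not say which hairpin was sequenced. Effects through its target and other effects of that hairpin or line therefore cannot be told apart.

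NRF2, the product of NFE2L2, is held in the cytoplasm and marked for destruction by KEAP1. When reactive cysteines of KEAP1 are modified by oxidants or electrophiles, NRF2 builds up, enters the nucleus with a small MAF partner and binds antioxidant response elements near genes for glutathione synthesis, quinone and carbonyl reduction, thioredoxin recycling, heme breakdown and iron storage. Most of this control acts on the NRF2 protein, which RNA sequencing does not measure. Glutathione peroxidases, peroxiredoxins, catalase and superoxide dismutases remove peroxides and superoxide, and many of them are also under other control.

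The antioxidant response element is built around a 9-base core, TGACNNNGC. RefSeq promoter windows, from 250 bases before to 50 bases after the annotated start (GRCh38.p14), were held for 29 of the 37 listed genes, and the core was found on either strand in 7 of them (24.1%), against 16.1% of all 27305 genes with a window. The windows with a core belonged to KEAP1, ME1, GCLM, GPX2, GSTP1, MGST1 and TXNRD1. A match is a description of these letters and not evidence of binding, and no core in a window says nothing about elements farther away. HMOX1, AKR1B10, GSR, TXN2, PRDX1, PRDX6, SOD1 and FTH1 had no window. The stretches below lie wholly upstream of a start and are written 5′ to 3′ on the strand of the gene, with the core in capitals, as the genes they belong to take up different places in the results.
GCLM (chr1:93909436-93909484, minus strand): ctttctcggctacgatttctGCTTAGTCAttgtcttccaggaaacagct
GPX2 (chr14:64942839-64942887, minus strand): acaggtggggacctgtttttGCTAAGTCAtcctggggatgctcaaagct
GSTP1 (chr11:67583726-67583774, plus strand): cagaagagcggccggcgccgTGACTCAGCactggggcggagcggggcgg
ME1 (chr6:83431160-83431208, minus strand): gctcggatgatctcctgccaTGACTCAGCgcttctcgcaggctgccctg
TXNRD1 (chr12:104215660-104215708, plus strand): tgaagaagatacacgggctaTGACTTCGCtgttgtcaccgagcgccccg
The core of GCLM began 34 bases before the start, that of GSTP1 66 bases before it and that of TXNRD1 99 bases before it. The cores of GCLM and GPX2 read on the opposite strand. Those of ME1 and GSTP1 also hold TGACTCA, the letters of an AP-1 site, which 4.95% of all 35116 windows held on either strand.

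Library totals ran from 16472722 to 26957777 counts, and the group took 1.23 to 1.71% of them. Levels are given in CPM (counts per library size, scaled between libraries). Epithelial keratins were present in every library (KRT18 at 282 CPM or more), KLK3 was at or under 0.0909 CPM, and CHGA was at 0. EPCAM and CDH1 moved with the hairpin: EPCAM was at 213 to 277 CPM in adherent shCtrl and 29.5 to 30.6 in adherent shSigma libraries, and CDH1 was at 674 to 766 and 23.9 to 30.1 in the spheres. Mitochondrial genes took 4.94 to 5.82% of counts in shCtrl spheres and 7.35 to 8.51% in shSigma spheres. Some replicates also differed by the base composition of their genes: over 10773 genes, the deviation of an adherent library from its group mean correlated with GC content at between -0.75 and 0.79. The part of these differences in the results was not tested, apart from repeating the fits with the GC trend of each library subtracted. For the hairpin comparisons the median log2 fold change of the 40 genes nearest to a gene on its chromosome was also subtracted. In bulk RNA, fewer cells of a kind and less RNA per cell cannot be told apart.

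Levels were compared between genes per 1000 bases of exon, with the exons of all annotated transcripts of a gene merged. The merged length was 14975 bases for NFE2L2 and 871 for FTL, so the order of genes depends in part on the annotation. FTL, the ferritin light chain, stood highest in each of the 4 groups, at 1215, 1925, 1542 and 3272 CPM per 1000 bases in adherent shCtrl, adherent shSigma, sphere shCtrl and sphere shSigma cells. PRDX1, a peroxiredoxin, came next in adherent shCtrl cells at 1041, and TXNRD1, the cytosolic thioredoxin reductase, in adherent shSigma cells at 936. In spheres the second place was taken by FTH1, the ferritin heavy chain, at 993 and 974. NFE2L2 itself lay far lower, between 7.32 and 9.88. The low end held SRXN1, GPX7, AKR1C1 and AKR1C2. SRXN1, the enzyme that repairs over-oxidised peroxiredoxins, had 0 to 9 counts in a library and passed the low-count filter in no comparison. In spheres it had 18 counts in sum in shSigma and 3 in shCtrl libraries, a ratio of 5.77 (95% exact interval 1.68 to 30.6, counting error only), and the libraries did not overlap.

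**Figure D1:**
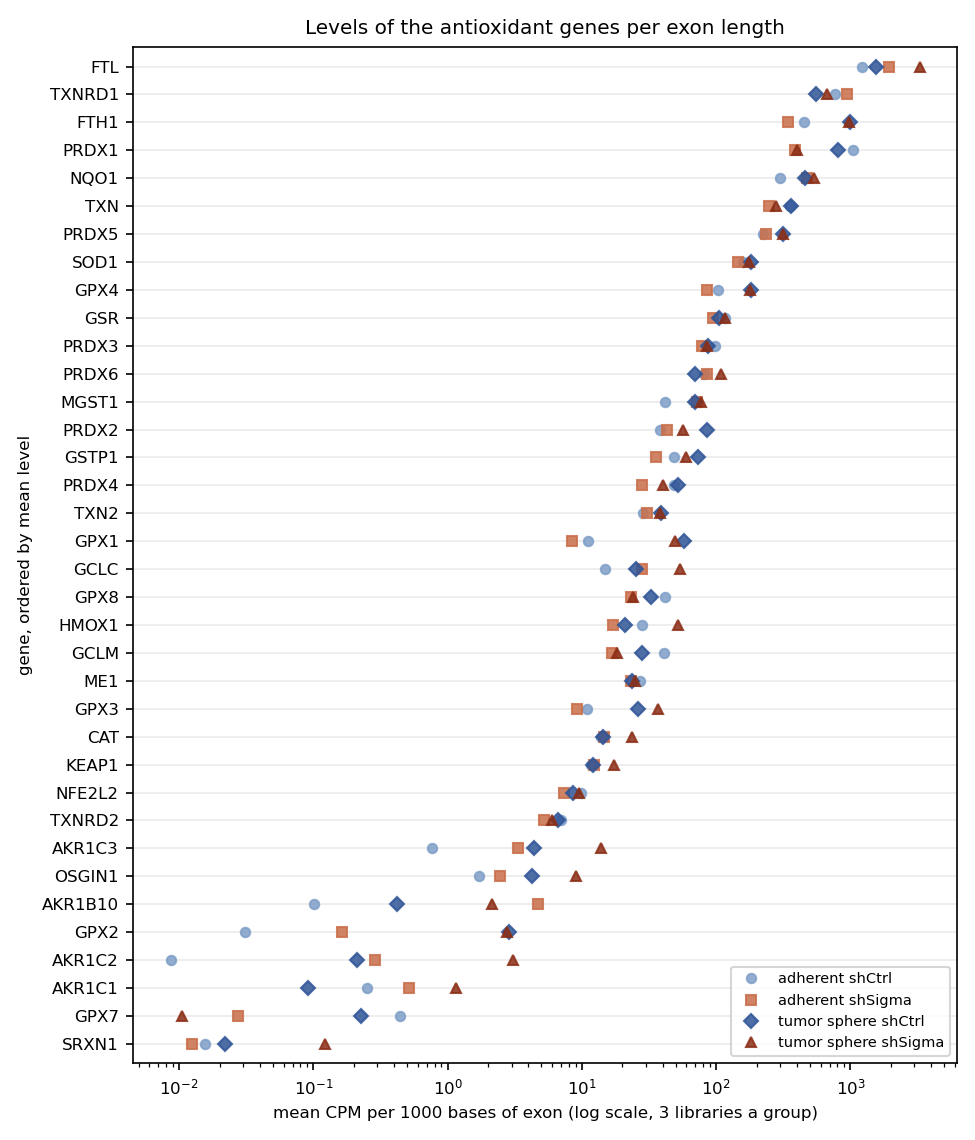
Mean level of each of the 36 genes in the 4 groups, as CPM per 1000 bases of exon on a log scale, with genes ordered by their mean. FTL lies at the top in each group, and the aldo-keto reductases spread more widely between groups than most other genes.

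The first question was what the shSigma hairpin did to these genes in each culture. Of 34 genes tested in adherent cells, 9 rose and 12 fell, and 13 did not pass an adjusted p of 0.05. Errors beside log2 values are standard errors, with 3 libraries a group. Over all genes tested there, 22.3% rose and 27.7% fell, 50.0% in all, so that the 21 genes called were a somewhat larger share than the background. In spheres 15 of 34 rose and 7 fell, while 30.2% of all genes rose and 30.9% fell, 61.1% in all. The median log2 fold change of the members was -0.17 in adherent cells and 0.10 in spheres, beside -0.01 and 0.00 for all genes. With a fold change of more than 2 in either direction also asked for, 4 genes rose and 3 fell in adherent cells (7.59% and 6.13% of all genes), and 8 rose and 1 fell in spheres (5.94% and 7.17%). The adherent and sphere comparisons share no library. No shSigma library overlapped a shCtrl library for 23 of 34 genes in each culture, beside 57.7% of all genes in adherent cells and 66.9% in spheres. Of 33 genes tested in both, 16 were called in both (80.0% of the adherent and 72.7% of the sphere calls): 8 rose in both, 5 fell in both and 3 went opposite ways. Of all 13391 genes tested in both, 36.1% were called in both (71.8% of the adherent and 59.1% of the sphere calls), with 14.2% higher in both, 17.7% lower in both and 4.12% opposite.

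**Figure D2:**
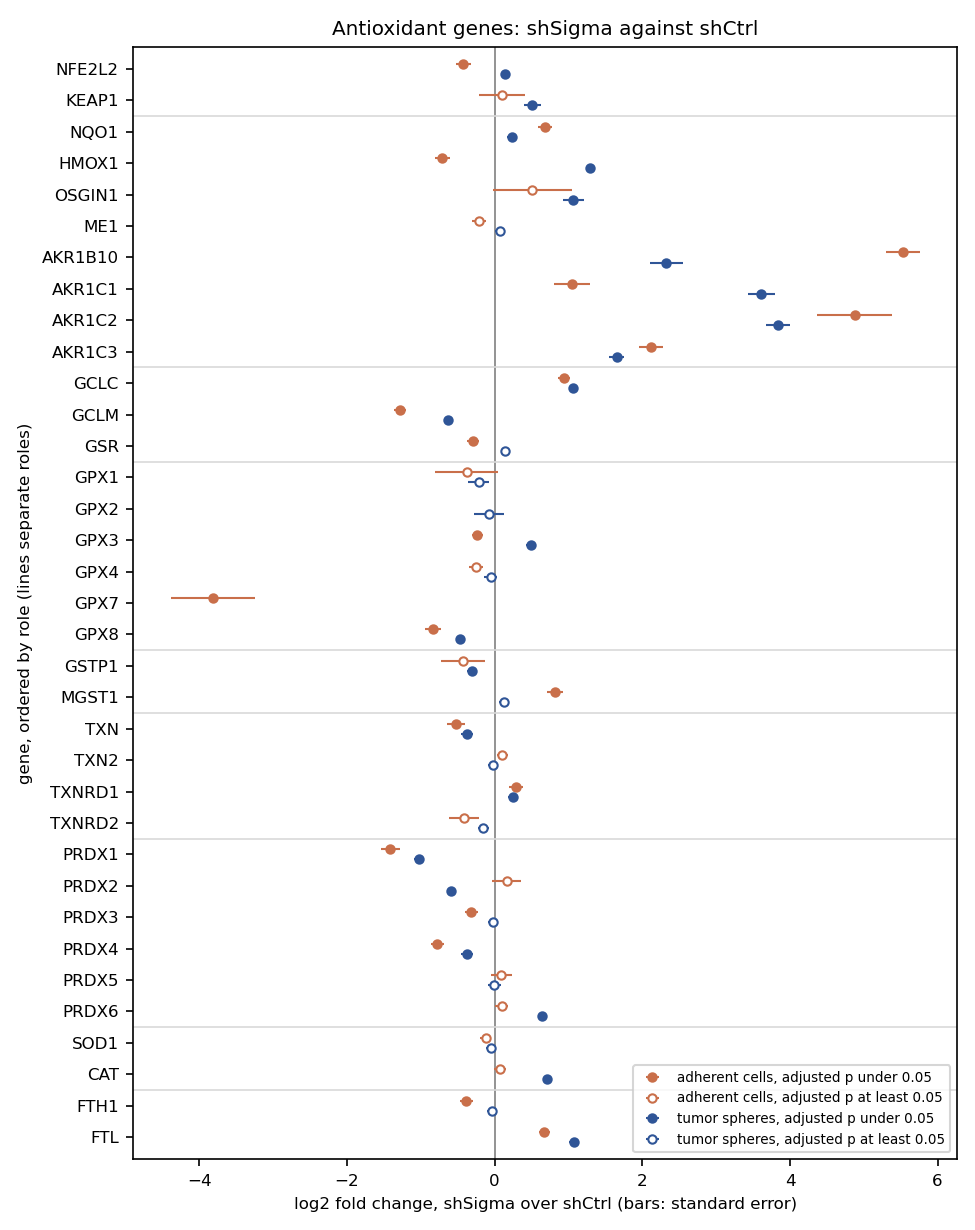
Log2 fold change of shSigma over shCtrl for each gene tested, in adherent cells and in tumor spheres, with standard errors. Filled points have an adjusted p under 0.05. The 4 aldo-keto reductases lie to the right in both cultures, PRDX1 and GCLM to the left in both, and HMOX1 on opposite sides.

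Among the genes tested, the aldo-keto reductases rose the most in both cultures. These enzymes reduce carbonyls, steroids and prostaglandins with NADPH, and AKR1B10 and the AKR1C genes are known NRF2 targets in human cells. AKR1B10 (ENSG00000198074, chr7:134527567-134541412 in GRCh38) was at 0.161, 0.262 and 0.118 CPM in the adherent shCtrl libraries and at 8.63, 8.09 and 8.5 in adherent shSigma libraries. In spheres it was at 0.64, 0.989 and 0.601 in shCtrl and 4.02, 3.29 and 3.98 in shSigma libraries. The libraries did not overlap in either culture, and the gene rose in both (log2 fold change 5.53 ± 0.23, adjusted p = 5.97e-06 in adherent cells; log2 fold change 2.32 ± 0.22, adjusted p = 3.31e-06 in spheres). The adherent shCtrl libraries held only 13 of its counts in sum against 528 in shSigma, a ratio of 47.3 after scaling (95% exact interval 27.4 to 89.5, counting error only). With the nearest genes subtracted AKR1B10 was at 5.01 in adherent cells and 1.64 in spheres on the log2 scale, both still called. AKR1C3, which makes androgens and prostaglandins, was the most abundant of the AKR1C genes per exon length and went from 3.67, 2.88 and 2.44 to 13.5, 13.3 and 12.1 CPM in adherent cells. In spheres it went from 14.4, 18.7 and 18.3 to 53.0, 51.4 and 59.5 CPM, and all shSigma libraries lay above all shCtrl libraries of the same culture (log2 fold change 2.12 ± 0.16, adjusted p = 5.75e-05; log2 fold change 1.65 ± 0.10, adjusted p = 6.96e-08). With the nearest genes subtracted AKR1C3 was at 2.17 in adherent cells and 1.36 in spheres, both still called.

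AKR1C2 was nearly silent in adherent shCtrl cells, with 4 counts in sum over 3 libraries against 110 in shSigma cells, a ratio of 32.1 (95% exact interval 12.2 to 120, adjusted p = 0.000186). In spheres it rose from 0.931, 1.37 and 1.55 to 17.7, 17.7 and 21.0 CPM (log2 fold change 3.84 ± 0.16, adjusted p = 3.72e-09). AKR1C1, which inactivates progesterone, rose from 1.77, 2.93 and 1.85 to 5.27, 4.63 and 3.55 CPM in adherent cells (log2 fold change 1.05 ± 0.25, adjusted p = 0.00965). Its rise in spheres was steeper, from 0.524, 0.934 and 0.952 to 10.3, 9.24 and 10.7 CPM (log2 fold change 3.61 ± 0.19, adjusted p = 1.92e-08). Among the 4 genes, then, AKR1B10 was highest in adherent shSigma cells and the 3 AKR1C genes were highest in sphere shSigma cells. The AKR1C genes lie side by side on chromosome 10 (AKR1C1 at chr10:4963253-4983283, AKR1C2 at chr10:4987775-5018031 and AKR1C3 at chr10:5035354-5107686 in GRCh38). They are close copies of one another, and how reads that fit several of them were counted is not given in the sources used here, so the split between them is uncertain.

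**Figure D3:**
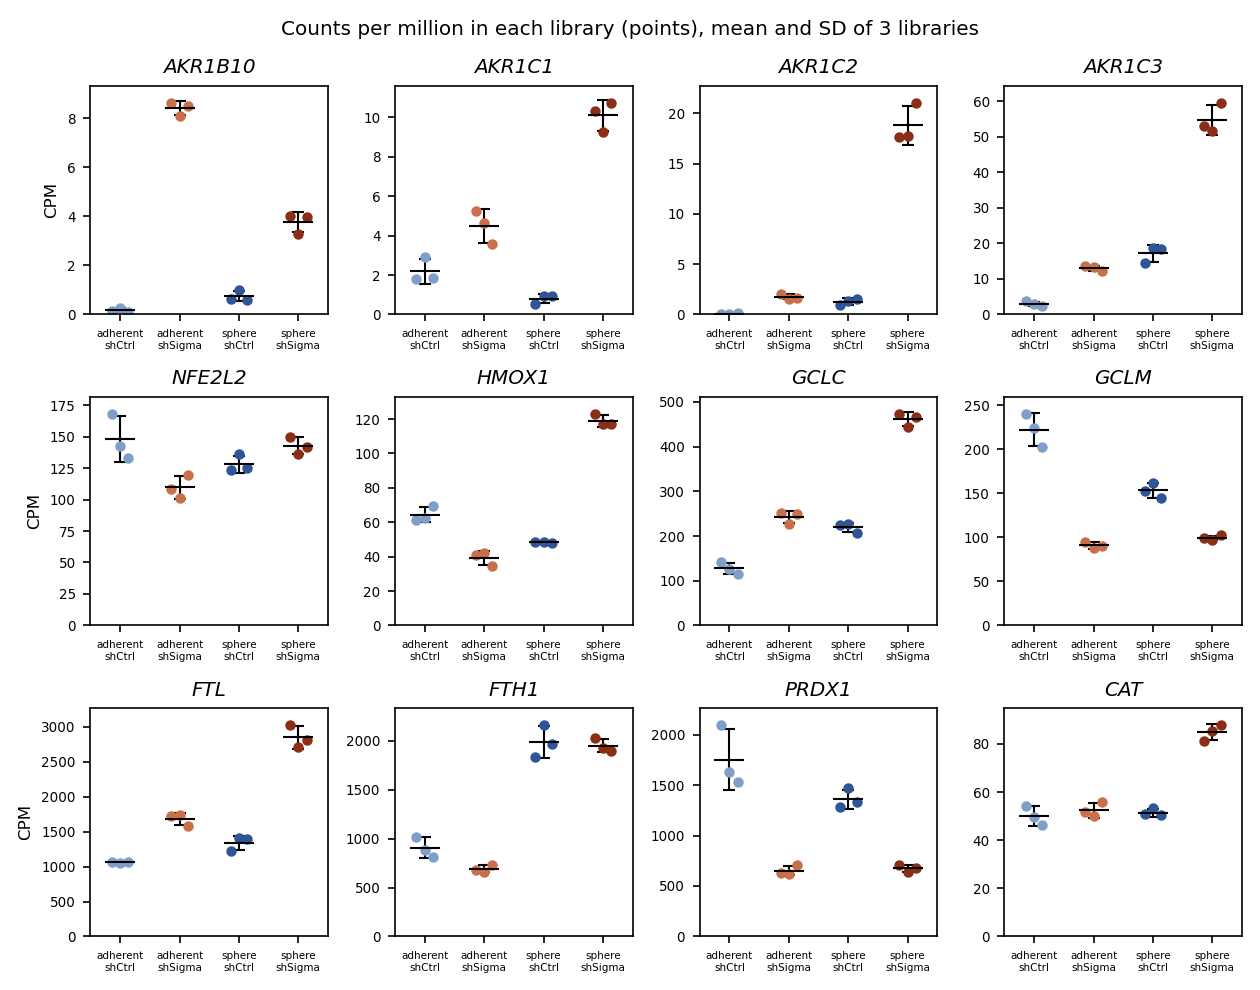
CPM of 12 genes in each library (points), with the mean and SD of the 3 libraries of a group, each panel on its own axis from 0. GCLC and GCLM move in opposite directions with the hairpin, and HMOX1 and CAT stand apart in the shSigma spheres.

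NFE2L2 and its inhibitor KEAP1 changed by small amounts. NFE2L2 was at 168, 143 and 133 CPM in adherent shCtrl and 108, 101 and 119.7 in adherent shSigma libraries, and at 123, 136 and 125 and 149.9, 137 and 141 in spheres. The transcript fell in adherent cells (log2 fold change -0.43 ± 0.10, adjusted p = 0.0102) and rose slightly in spheres (log2 fold change 0.14 ± 0.06, adjusted p = 0.0463). Neither call was firm. The adherent call was lost without shSigma replicate 1 or 2 or shCtrl replicate 1 or 2 (adjusted p 0.0523 to 0.0871), and the sphere call on leaving out any 1 library other than shCtrl replicate 2 (0.0508 to 0.147). The adherent call was also lost with the nearest genes subtracted, and the sphere call with DESeq2 and with most other settings, while with the GC trend subtracted it stayed (0.22). KEAP1 rose in spheres, from 48.5, 34.9 and 46.1 to 64.6, 61.6 and 59.8 CPM (log2 fold change 0.51 ± 0.11, adjusted p = 0.00257), while the adherent libraries overlapped (log2 fold change 0.09 ± 0.31, adjusted p = 0.825). KEAP1 is GC-rich at 60.8%, and its adherent log2 fold change was -0.15 with the GC trend subtracted.

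Classical NRF2 targets did not move as one. NQO1, which reduces quinones in a single step of 2 electrons, rose from 997, 854 and 801 to 1385, 1343 and 1496 CPM in adherent cells (log2 fold change 0.68 ± 0.10, adjusted p = 0.000871). In spheres it rose from 1324, 1425 and 1310.2 to 1689.6, 1511 and 1612 CPM (log2 fold change 0.23 ± 0.06, adjusted p = 0.00646). HMOX1, which opens the heme ring and releases iron and carbon monoxide, fell from 61.5, 62.7 and 69.3 to 40.8, 42.1 and 34.7 CPM in adherent cells (log2 fold change -0.71 ± 0.10, adjusted p = 0.000819). In spheres the same gene rose from 48.6, 48.7 and 47.7 to 123, 117 and 117 CPM (log2 fold change 1.29 ± 0.05, adjusted p = 3.83e-09), and neither pair of groups overlapped. With the nearest genes subtracted its log2 fold change was -1.20 in adherent cells and 0.87 in spheres, both still called. OSGIN1, a growth inhibitor induced by oxidised lipids, rose in spheres from 28.0, 17.9 and 25.2 to 53.5, 48.0 and 48.8 CPM (log2 fold change 1.07 ± 0.14, adjusted p = 0.000135). Its adherent libraries overlapped widely, at 5.24, 9.18 and 14.3 and 15.9, 19.1 and 5.73 CPM, and at 63.4% GC it was among the genes most exposed to the composition trend. ME1, the cytosolic malic enzyme that makes NADPH, passed the test in neither culture (-0.21 ± 0.10 and 0.07 ± 0.06 on the log2 scale), but was called as higher in spheres with the GC trend (0.16) or the nearest genes (0.23) subtracted.

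In glutathione synthesis, the 2 subunits of the rate-limiting enzyme went opposite ways. GCLC, the catalytic subunit of glutamate-cysteine ligase, rose from 141, 126 and 116 to 252, 226 and 249.6 CPM in adherent cells (log2 fold change 0.94 ± 0.09, adjusted p = 0.000116). In spheres it rose from 224, 227 and 207 to 473, 443 and 467 CPM (log2 fold change 1.06 ± 0.05, adjusted p = 1.81e-08). GCLM, the modifier subunit that lowers the feedback of glutathione on the enzyme, fell from 240.1, 224 and 202 to 94.5, 87.5 and 90.4 CPM in adherent cells (log2 fold change -1.28 ± 0.08, adjusted p = 2.06e-05). It fell in spheres too, from 153, 162 and 145 to 98.8, 97.1 and 102 CPM (log2 fold change -0.64 ± 0.05, adjusted p = 1.32e-06). No shCtrl library overlapped a shSigma library of its culture for either gene, and all 4 calls held with each library left out. The 40 genes nearest to GCLM had a median log2 fold change of -0.58 in adherent cells and -0.46 in spheres. With that subtracted GCLM was still called, at -0.70 (adjusted p = 0.00028) and -0.18 (adjusted p = 0.0139). The ratio of GCLC to GCLM counts within a library, a measure taken up after these values were seen, was 0.574 ± 0.0125 (SD, n = 3) in adherent shCtrl and 2.67 ± 0.0853 in adherent shSigma cells. In spheres it was 1.43 ± 0.0315 and 4.64 ± 0.125. An exact two-sided permutation test gave p = 0.1 in each culture, the smallest that 3 against 3 libraries allow. As the 2 genes had already separated fully in opposite directions, this outcome was fixed and the test adds no support. GSR, which regenerates reduced glutathione, fell in adherent cells (log2 fold change -0.29 ± 0.08, adjusted p = 0.0168), a call lost without shSigma replicate 1 or 2 or shCtrl replicate 1 or 2 (adjusted p 0.145 to 0.236). In spheres it did not pass (log2 fold change 0.14 ± 0.06, adjusted p = 0.054), though it was called as higher with the GC trend subtracted (0.18).

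Of the glutathione peroxidases, 3 of the 5 tested fell in adherent cells, while in spheres 1 of 5 rose and 1 fell. GPX8, a peroxidase of the endoplasmic reticulum, fell in both cultures (log2 fold change -0.84 ± 0.11, adjusted p = 0.000603 in adherent cells; log2 fold change -0.46 ± 0.05, adjusted p = 1.57e-05 in spheres), from 192, 161 and 151 to 89.1, 87.1 and 104 CPM in the former. GPX7, of the same compartment, went from 55 counts in sum to 3 in adherent cells, where shCtrl was 15.7 times higher (95% exact interval 5.11 to 78.6, adjusted p = 0.000932). In spheres, with 21 counts against 1, it was not tested. GPX3, the secreted peroxidase, rose in spheres from 76.1, 74.3 and 84.6 to 117, 107 and 110.1 CPM (log2 fold change 0.49 ± 0.07, adjusted p = 4.43e-05). In adherent cells GPX3 fell from 33.8, 31.7 and 32.1 to 26.9, 28.3 and 27.1 CPM (log2 fold change -0.24 ± 0.07, adjusted p = 0.0291), and that call was lost on leaving out any 1 library other than shCtrl replicate 3 (adjusted p 0.0768 to 0.322). GPX1 and GPX4, which clear hydrogen peroxide and lipid peroxides, passed in neither culture. For GPX1 the adherent values were 10.9, 13.3 and 23.2 and 13.3, 16.6 and 6.46 CPM, which overlapped widely (log2 fold change -0.38 ± 0.43, adjusted p = 0.503). GPX1 has a GC content of 64.1% and was called as lower in both cultures once the GC trend was subtracted, by a log2 fold change of -0.72 in adherent cells (adjusted p = 0.00188) and of -0.50 in spheres (adjusted p = 8.64e-06). GPX4, at 62.5% GC, was called as lower in both as well, at -0.55 and -0.29 with the GC trend and at -0.70 and -0.34 with its nearest genes subtracted. With the nearest genes subtracted, GPX3 was at -0.37 in adherent cells and GPX8 at -0.27 in spheres, both still called. GPX2 had 0 to 7 counts in adherent libraries and was not tested there. It had 14 counts in sum in shSigma and 3 in shCtrl libraries, a ratio of 5.44 (95% exact interval 1.52 to 29.5, counting error only).

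The 2 glutathione transferases each passed in 1 culture. MGST1, a membrane-bound transferase, rose in adherent cells from 358, 293 and 272 to 539, 515 and 563 CPM (log2 fold change 0.82 ± 0.10, adjusted p = 0.000547) and did not pass in spheres (log2 fold change 0.12 ± 0.06, adjusted p = 0.104). GSTP1, the cytosolic form, fell in spheres from 129, 119 and 138 to 112, 101 and 103 CPM (log2 fold change -0.30 ± 0.07, adjusted p = 0.00224), and its adherent libraries overlapped (log2 fold change -0.43 ± 0.30, adjusted p = 0.277). With a GC content of 62.5%, GSTP1 was called as lower in adherent cells as well once the GC trend was subtracted (-0.75), and its log2 fold change in spheres was then -0.52. It was -0.55 with the nearest genes subtracted. MGST1 was called as higher in spheres with the GC trend subtracted (0.19).

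Thioredoxin and most peroxiredoxins called were lower with the hairpin. TXN, the cytosolic thioredoxin, fell in adherent cells from 429, 338 and 311 to 246, 239 and 261 CPM (log2 fold change -0.52 ± 0.12, adjusted p = 0.0076) and in spheres from 329, 414 and 346 to 304, 263 and 282 CPM (log2 fold change -0.37 ± 0.08, adjusted p = 0.00299). TXNRD1, which recharges TXN with NADPH, rose in both (log2 fold change 0.29 ± 0.10, adjusted p = 0.0409 in adherent cells; log2 fold change 0.25 ± 0.07, adjusted p = 0.00706 in spheres). Its adherent call was lost without shSigma replicate 1 or 3 or shCtrl replicate 2 or 3 (adjusted p 0.0564 to 0.112). With the GC trend subtracted the adherent log2 fold change of TXN was -0.34. The mitochondrial pair TXN2 and TXNRD2 passed in neither culture. TXNRD2, at 62.6% GC, was called as lower in both cultures with the GC trend subtracted (-0.71 in adherent cells and -0.38 in spheres) and with its nearest genes subtracted (-0.73 and -0.40). TXN2 was called as lower in both with the nearest genes subtracted (-0.39 and -0.52).

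PRDX1, the most abundant peroxiredoxin, fell from 2096, 1634 and 1526 to 629, 624 and 705 CPM in adherent cells (log2 fold change -1.42 ± 0.13, adjusted p = 0.00011). In spheres it fell from 1279, 1466 and 1329 to 707, 639 and 676 CPM (log2 fold change -1.02 ± 0.07, adjusted p = 1.11e-07). The 40 genes nearest to PRDX1 had a median of -0.63 in adherent cells, and with it subtracted PRDX1 was still called there, at -0.78. The shSigma libraries of both cultures sat at about the same level, well under every shCtrl library. PRDX4, of the endoplasmic reticulum, also fell in both cultures (log2 fold change -0.78 ± 0.09, adjusted p = 0.000266; log2 fold change -0.37 ± 0.08, adjusted p = 0.00198). PRDX3, the mitochondrial form, fell in adherent cells (log2 fold change -0.31 ± 0.09, adjusted p = 0.0196), a call lost without shSigma replicate 1 or 2 or shCtrl replicate 1 or 2 (adjusted p 0.11 to 0.199). Its adherent log2 fold change was -0.19 with the GC trend and -0.53 with the nearest genes subtracted, and with the latter it was called as lower in spheres too (-0.35). PRDX2 fell in spheres from 174, 171 and 178 to 121, 112 and 116 CPM (log2 fold change -0.60 ± 0.05, adjusted p = 1.45e-06), where PRDX6, which repairs oxidised phospholipids, rose from 153, 169 and 159 to 255, 250.1 and 250.4 CPM (log2 fold change 0.64 ± 0.05, adjusted p = 7.12e-07). The rise of PRDX6 was no longer called when the median change of its 40 nearest genes was subtracted (log2 fold change 0.10, adjusted p = 0.114). With the GC trend subtracted PRDX6 was called as higher in adherent cells (0.21). PRDX5 passed in neither culture, and was called as lower in adherent cells with the GC trend subtracted (-0.16).

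Catalase rose in spheres. CAT, the peroxisomal enzyme that splits hydrogen peroxide, went from 50.8, 53.3 and 50.3 to 81.2, 85.5 and 87.9 CPM there (log2 fold change 0.71 ± 0.06, adjusted p = 9.8e-07), and from 54.3, 49.5 and 46.3 to 51.7, 49.8 and 55.7 in adherent cells (log2 fold change 0.08 ± 0.08, adjusted p = 0.478). The difference between the cultures passed its own test (adjusted p = 0.00114). With the GC trend subtracted CAT was called as higher in adherent cells too, by 0.17 on the log2 scale, against 0.75 in spheres. SOD1, the cytosolic superoxide dismutase, passed in neither (-0.12 ± 0.07 and -0.05 ± 0.06 on the log2 scale), but was called as lower in adherent cells (-0.38) when the median of its 40 nearest genes was subtracted.

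The ferritin chains, which form one iron-storing shell, parted. FTL rose from 1067, 1045 and 1063 to 1719, 1732 and 1580.4 CPM in adherent cells (log2 fold change 0.67 ± 0.07, adjusted p = 0.000221) and from 1227, 1402 and 1399 to 3027, 2708 and 2816 CPM in spheres (log2 fold change 1.07 ± 0.07, adjusted p = 1.69e-07). FTH1, the chain that oxidises iron, fell in adherent cells (log2 fold change -0.38 ± 0.09, adjusted p = 0.0117), a call lost without shSigma replicate 1 or 2 or shCtrl replicate 1 or 2 (adjusted p 0.0699 to 0.111), and did not pass in spheres (log2 fold change -0.04 ± 0.07, adjusted p = 0.64), where it was called as lower with the nearest genes subtracted (-0.24). FTH1 counts per FTL count, a ratio also formed after the values were seen, came to 0.858 ± 0.0959 (SD, n = 3) in adherent shCtrl and 0.415 ± 0.0444 in adherent shSigma cells. The same ratio was 1.48 ± 0.0709 and 0.686 ± 0.0233 in spheres (exact two-sided permutation p = 0.1 in each, the smallest possible). As the ratio was chosen from these values, the test adds no support to them. Both chains have many processed copies in the genome, and the treatment of reads that fit several places is not given in the sources used here.

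The second question was how these genes differed between spheres and adherent cells of one line. These comparisons use the same libraries as those above. In shCtrl cells 18 of 35 genes were higher in spheres and 7 lower, beside 27.4% and 26.3% of all genes (53.7% in all). In shSigma cells 20 of 34 were higher and 2 lower, beside 21.9% and 25.2% (47.1% in all). Past a fold change of 2, 9 genes were higher and 1 lower in shCtrl cells (10.8% and 4.96% of all genes), and 10 were higher and 1 lower in shSigma cells (5.76% and 3.56%). Sphere and adherent libraries did not overlap for 26 of 35 genes in shCtrl cells (62.6% of all genes) and 29 of 34 in shSigma cells (63.2%). Members had a median log2 fold change of 0.24 in shCtrl and 0.40 in shSigma cells, beside 0.04 and 0.00 for all genes. Of 34 genes tested in both lines, 13 were higher in spheres in both, TXNRD1 was lower in both, and HMOX1, AKR1B10 and AKR1C1 went opposite ways. Of all 13275 genes tested in both lines, 12.8% were higher in both, 14.5% lower in both and 3.64% opposite.

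**Figure D4:**
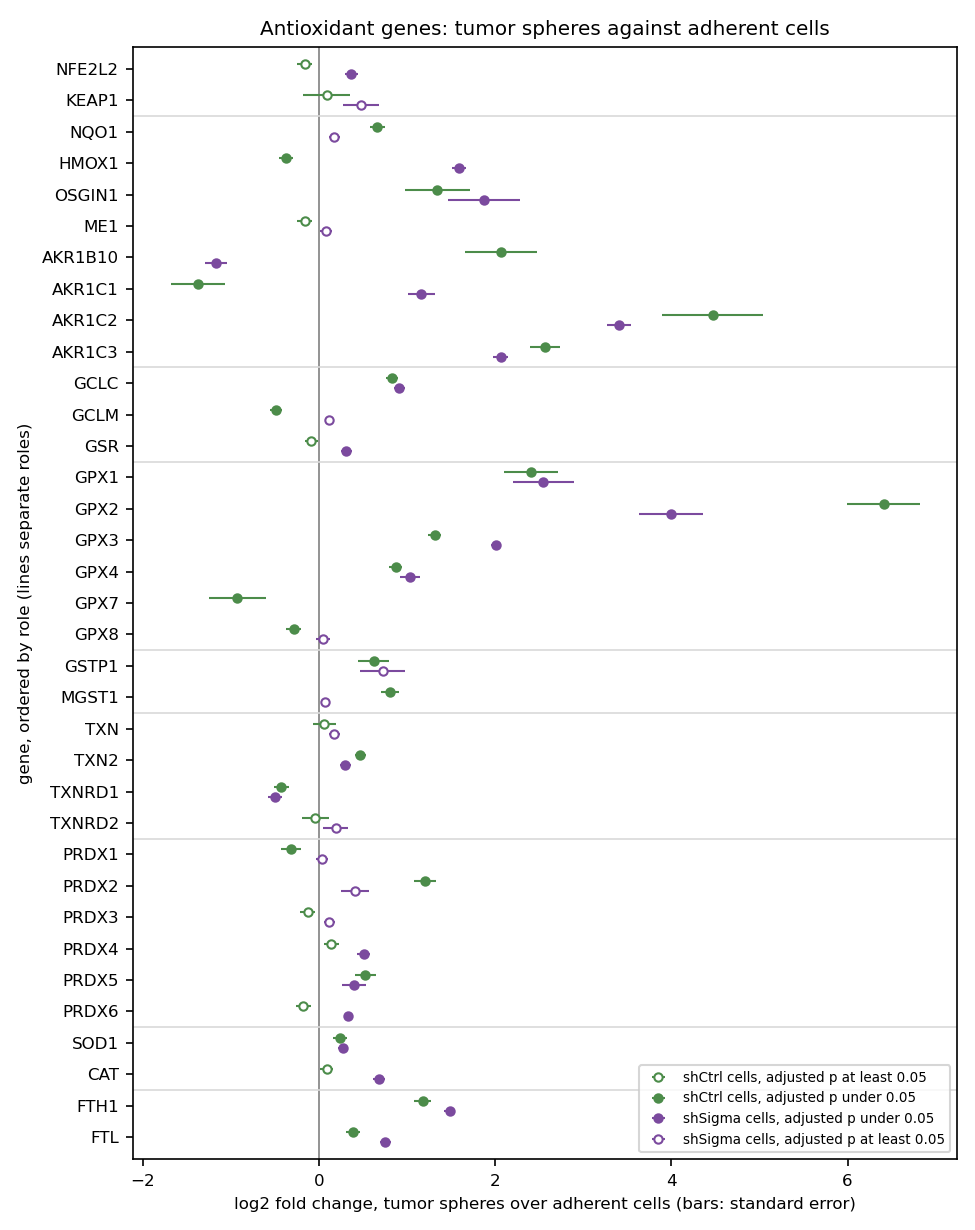
Log2 fold change of tumor spheres over adherent cells for each gene tested, in shCtrl and in shSigma cells, with standard errors. Filled points have an adjusted p under 0.05. GPX1, GPX2, GPX3 and GPX4 lie to the right in both lines, and GPX2 lies farthest.

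Of the glutathione peroxidases, 4 of 6 tested were higher in spheres in shCtrl cells and 4 of 5 in shSigma cells. GPX2, an epithelial peroxidase of the gut and a known NRF2 target, had 3 counts in sum in adherent shCtrl and 214 in sphere shCtrl libraries, a ratio of 94.2 (95% exact interval 31.8 to 460, adjusted p = 8.9e-06). In shSigma cells the sums were 14 and 212, a ratio of 16.5 (95% exact interval 9.62 to 30.7, adjusted p = 0.000109). GPX1 rose from 10.9, 13.3 and 23.2 to 91.7, 66.9 and 87.0 CPM in shCtrl cells (log2 fold change 2.41 ± 0.30, adjusted p = 0.000695) and also in shSigma cells (log2 fold change 2.55 ± 0.35, adjusted p = 0.00253). GPX3 rose as well (log2 fold change 1.31 ± 0.08, adjusted p = 6.66e-06 in shCtrl; log2 fold change 2.01 ± 0.06, adjusted p = 6.82e-07 in shSigma). GPX4, which guards membranes against lipid peroxidation, was higher in spheres of both lines (log2 fold change 0.87 ± 0.07, adjusted p = 4.77e-05; log2 fold change 1.03 ± 0.12, adjusted p = 0.000689), but at 62.5% GC its shCtrl call did not hold with the GC trend subtracted (log2 fold change 0.29, adjusted p = 0.082).

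FTH1 was higher in spheres of both lines, going from 1022, 887 and 815 to 1839, 2164 and 1964 CPM in shCtrl cells (log2 fold change 1.18 ± 0.10, adjusted p = 3.73e-05). FTL rose less (log2 fold change 0.39 ± 0.08, adjusted p = 0.00361 in shCtrl; log2 fold change 0.75 ± 0.07, adjusted p = 9.09e-05 in shSigma). AKR1C3 and AKR1C2 rose in both lines as well, AKR1C3 by 2.56 ± 0.17 in shCtrl and 2.06 ± 0.08 in shSigma cells on the log2 scale. GCLC rose in both (log2 fold change 0.83 ± 0.07, adjusted p = 5.27e-05; log2 fold change 0.91 ± 0.06, adjusted p = 1.89e-05), while GCLM fell in shCtrl cells (log2 fold change -0.49 ± 0.07, adjusted p = 0.000644) and did not pass in shSigma cells. TXNRD1 was lower in spheres of both lines (log2 fold change -0.43 ± 0.08, adjusted p = 0.00365; log2 fold change -0.50 ± 0.08, adjusted p = 0.00135). With the GC trend subtracted the shCtrl values were -0.23 for GCLM, -0.20 for TXNRD1, 0.22 for FTL, -0.68 for HMOX1, 0.75 for OSGIN1 and 0.28 for TXN2, all still called. Calls appeared with it for TXN, PRDX4 and CAT (higher) and for TXNRD2 (-0.61) and KEAP1 (-0.34) in shCtrl cells. In shSigma cells they appeared for 10 genes that were higher, and for TXNRD2, which was lower (-0.30). In shCtrl cells the calls of OSGIN1, GSTP1 and PRDX1 were each lost without adherent replicate 2 or sphere replicate 1 or 3 (adjusted p 0.0551 to 0.115). Those of GPX7 and SOD1 were lost without most libraries (GPX7 without any of the 6, SOD1 without any but adherent replicate 1, adjusted p 0.0515 to 0.145), and that of GPX8 without sphere replicate 1 (0.0623). In shSigma cells PRDX5 was lost without adherent replicate 2 or any sphere library (0.0552 to 0.142).

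Whether the hairpin acted differently in the cultures was tested in one fit of all 12 libraries, as the fold change in spheres less that in adherent cells. Of 35 genes tested, 9 were called with a higher value in spheres and 6 with a lower one, beside 12.7% and 15.6% of all genes (28.4% in all). Past a fold of 2, there were 2 in each direction (2.50% and 6.04% of all genes). HMOX1 differed by 1.94 ± 0.11 on the log2 scale (adjusted p = 3.38e-08) and AKR1C1 by 2.51 ± 0.33 (adjusted p = 7.61e-05), both toward spheres. AKR1B10 differed by -3.26 ± 0.38 (adjusted p = 2.29e-05), with the larger rise in adherent cells. GCLC, whose rise was near the same in both, gave 0.06 ± 0.10 (adjusted p = 0.712).

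Other genes of the same pathways were drawn from a list of 79, of which 74 could be tested in each hairpin comparison. In adherent cells 23 rose and 18 fell, beside 22.3% and 27.7% of all genes. In spheres 24 rose and 26 fell, beside 30.2% and 30.9% of all genes. CYP4F11, a fatty acid hydroxylase and NRF2 target, went from 1.13, 0.787 and 0.944 to 27.8, 26.4 and 27.5 CPM in adherent cells (log2 fold change 4.83 ± 0.14, adjusted p = 1.97e-06) and rose in spheres (log2 fold change 4.19 ± 0.14, adjusted p = 6.14e-10). ABCC2, an exporter of glutathione conjugates, fell from 61.5, 64.2 and 56.7 to 6.93, 5.55 and 5.77 CPM in adherent cells (log2 fold change -3.31 ± 0.11, adjusted p = 2.98e-06) and also fell in spheres (log2 fold change -2.80 ± 0.09, adjusted p = 4.3e-10). ALDH3A1, an aldehyde dehydrogenase, fell in both cultures (log2 fold change -2.53 ± 0.29, adjusted p = 0.000308; log2 fold change -3.27 ± 0.23, adjusted p = 2.49e-07). TXNIP, the inhibitor of thioredoxin, rose from 5.12, 4.15 and 3.19 to 30.0, 27.0 and 31.5 CPM in adherent cells and fell in spheres from 67.9, 71.7 and 80.6 to 32.7, 37.6 and 35.6 CPM (log2 fold change 2.84 ± 0.17, adjusted p = 2.22e-05; log2 fold change -1.07 ± 0.08, adjusted p = 5.01e-07). The remaining adherent genes with the largest changes were SELENOP (2.01 on the log2 scale), a selenium carrier, and SLC40A1 (1.56), the iron exporter. In spheres they were MSRB3 (1.68), which repairs oxidised methionine, the conjugate exporter ABCC3 (1.66) and the aldose reductase AKR1B1 (1.38).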

How the data were processed

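Total RNA from 12 samples of DU145 cells was sequenced. Per the labels and methods, the authors made the libraries with a directional kit. They mapped and quantified reads with STAR (version 2.6.1c in the submitters' processing notes) to GRCh38.p12 and deposited raw counts per gene. The strand setting used in counting, the annotation and the treatment of multiply mapping reads were not given in the sources used here. Of the 36 genes, 10 overlapped a gene on the same strand, 10 a gene on the other strand only, and 13 had named pseudogenes.

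Groups came from the sample titles. The check of the targeted gene is not reported here. Symbols were matched through GENCODE 44. Counts were tested with edgeR 4.0.16 (quasi-likelihood, robust, TMM scaling, filterByExpr at a minimum count of 10, two-sided) on each pair of groups, and on all 12 libraries for the interaction, with Benjamini-Hochberg adjustment over all genes. Calls were made below an adjusted p of 0.05. Errors beside log2 fold changes are standard errors. CPM used TMM over 12 libraries. The fits were checked on simulated counts with the same spread for every gene and no GC trend. That check therefore does not cover the GC differences between replicates. Alternatives were DESeq2, other scalings, no filter, one fit of 12 libraries, each library left out, a replicate block, subtraction of the 40 nearest genes and, added after seeing the data, of GC trends. All 37 genes are named. Of the list of 79, up to 6 per culture are, by largest change. Members and lists were chosen with earlier results of these data known. Totals ran from 16472722 to 26957777 counts, and intervals cover counting error only.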

Additional observations from a re-analysis of the deposited data

Results flagged for a closer look

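For 15 genes the effect of the hairpin differed between spheres and adherent cells by the interaction test, beside 28.4% of all genes. Values here are the log2 fold change in spheres less that in adherent cells, with the standard error. The genes with the larger value in spheres were AKR1C1 (2.51 ± 0.33), HMOX1 (1.94 ± 0.11), GPX3 (0.67 ± 0.10), GCLM (0.58 ± 0.09), CAT (0.57 ± 0.11), NFE2L2 (0.50 ± 0.13), PRDX6 (0.49 ± 0.10), GSR (0.37 ± 0.11) and FTL (0.34 ± 0.10). Those with the larger value in adherent cells were AKR1B10 (-3.26 ± 0.38), GPX2 (-2.43 ± 0.87), PRDX2 (-0.81 ± 0.20), MGST1 (-0.76 ± 0.13), AKR1C3 (-0.53 ± 0.18) and NQO1 (-0.51 ± 0.12).

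HMOX1, NFE2L2 and GPX3 fell in adherent cells and rose in spheres. As given above, the calls of NFE2L2 in both cultures and of GPX3 in adherent cells were not firm. GCLM fell in both, by more in adherent cells. GPX2 rests on 0 to 7 counts in the adherent libraries.

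Of 18 alternatives other than the GC trend, 15 ended the call of AKR1C3. The call was lost for AKR1C3 on leaving out any 1 of the 12 libraries other than replicate 1 of adherent or sphere shCtrl cells (adjusted p 0.062 to 0.153). It was lost for GPX2 without adherent shSigma replicate 1 or 3, adherent shCtrl replicate 2 or 3, sphere shSigma replicate 1 or sphere shCtrl replicate 1 or 3 (0.0559 to 0.144), for GSR without any of 5 (adherent shSigma replicates 1 and 2, sphere shSigma replicate 3, sphere shCtrl replicates 1 and 3; adjusted p 0.0518 to 0.063), and for FTL without sphere shSigma replicate 1 or sphere shCtrl replicate 1 (0.0583 and 0.0547).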

How the results depend on the processing

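With a fold change over 2 also asked for, the genes called numbered 7 in adherent cells, 9 in spheres, 10 and 11 between cultures in shCtrl and shSigma cells, and 4 for the interaction. Every other setting kept these counts within 1.5 times of 21, 22, 25, 22 and 15. Replicate numbers did not pair the samples, since libraries of the same number deviated together in only some pairs (correlations from -0.91 to 0.53). With a replicate block the counts were 16, 22, 21, 25 and 13. Leaving out 1 library gave 15 to 21, 21 to 25, 19 to 27, 21 to 29 and 12 to 19. With the GC trend subtracted they were 28, 28, 23, 32 and 21, and the calls over all genes changed too. Those went from 6886, 8414, 7404, 6414 and 4024 to 8252, 8581, 7768, 7188 and 5489 in the same order. The genes tested numbered 13764, 13774, 13800, 13622 and 14175 before and 13666, 13669, 13699, 13516 and 14060 after. The matching calls over all genes are not given here for the replicate block or the left-out libraries. In one fit of 12 libraries NFE2L2, KEAP1, OSGIN1 and GSTP1 were no longer called in spheres. DESeq2 ended the adherent calls of GSR and GPX3, the sphere call of NFE2L2 and the interaction call of AKR1C3. It also ended those of GPX7 and SOD1 between cultures in shCtrl cells. The replicate block ended the adherent calls of GSR, GPX3, TXNRD1, PRDX3 and FTH1, and the sphere call of NFE2L2. Between cultures in shCtrl cells it ended those of GPX7, GPX8, PRDX1 and SOD1, and in the interaction those of AKR1C3 and FTL. The GC subtraction ended calls between cultures of GPX4, GPX7, GPX8, GSTP1, PRDX1, PRDX5 and SOD1 in shCtrl and of PRDX5 in shSigma cells. It added KEAP1, GPX8, TXNRD2, PRDX1, PRDX4 and FTH1 to the interaction calls. All called genes kept their direction in every alternative.

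Log2 fold changes that turned direction all belonged to genes not called, and the cause was not tested. In adherent cells these were, with the GC trend subtracted, KEAP1 (-0.15), TXN2 (-0.016) and PRDX5 (-0.16), and, with the 40 nearest genes subtracted, TXN2 (-0.39), PRDX5 (-0.083) and PRDX6 (-0.24). In spheres they were GPX1 (0.13) and GPX2 (0.32) with the nearest genes, and PRDX3 (0.034) and FTH1 (0.0063) with the GC trend. Between cultures in shCtrl cells they were NFE2L2 (0.085), KEAP1 (-0.34), ME1 (0.089), GSR (0.099), PRDX3 (0.11) and PRDX6 (0.055) with the GC trend, and TXNRD2 (0.00093) with upper-quartile factors. In shSigma cells TXNRD2 turned with the GC trend (-0.30), and SOD1 in the interaction with upper-quartile factors (-0.00051).

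Leaving out 1 library also turned some. The ranges were -0.091 to 0.37 for KEAP1 and -0.62 to 0.0092 for GPX1 in adherent cells. In spheres they were -0.28 to 0.11 for GPX2, -0.16 to 0.0076 for GPX4, -0.066 to 0.022 for PRDX3, -0.083 to 0.084 for PRDX5, -0.094 to 0.0019 for SOD1 and -0.087 to 0.019 for FTH1. Between cultures they were -0.18 to 0.34 for KEAP1, -0.068 to 0.15 for TXN and -0.22 to 0.094 for TXNRD2 in shCtrl cells, and -0.0039 to 0.14 for GPX8 in shSigma cells. For the interaction they were -0.24 to 0.42 for GPX1, -2.2 to 0.56 for GPX7, -0.081 to 0.29 for GSTP1, -0.12 to 0.055 for TXNRD1, -0.21 to 0.0073 for PRDX5 and -0.012 to 0.13 for SOD1. Genes with few counts, such as GPX7, GPX2 and SRXN1, were limited by depth.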
